A study of Mus musculus with 18 samples.

Results

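Cholesterol and fatty acid synthesis was followed through 28 genes in mouse skin. The sorted populations were dermal papilla (DP) cells, a mesenchymal cluster that sends signals to the follicle above it, and epithelial stem cells of the follicle (HFSC), from which a new hair is grown. The genes were taken from a fixed list of 17 cholesterol synthesis enzymes, 4 regulators of the pathway and 7 fatty acid synthesis enzymes. All 28 were found among the 52958 gene symbols of the DP data and the 27933 of the HFSC data, and all 28 passed the filter on low counts in both cell types. Cells were purified by flow cytometry, RNA was sequenced in 18 libraries, and each of the 9 groups had 2. In DP the groups were sham-operated (Sham) and adrenalectomised (ADX) wild-type C57BL/6 mice, and a second experiment on a 129/C57BL/6 background with wild-type mice (Control) and Pdgfra-CreER; GR fl/fl mice (GR KO), all of which received tamoxifen intraperitoneally for 6 days. In HFSC the same 4 groups were profiled, together with adrenalectomised C57BL/6 mice fed corticosterone (ADX+CORT). Adrenalectomy removes the main source of corticosterone, the glucocorticoid of mice. Pdgfra-CreER is active in dermal cells, so that in GR KO mice the glucocorticoid receptor gene Nr3c1 was targeted in the dermal papilla and other Pdgfra-expressing dermal cells, and the HFSC of these mice were sampled next to the altered dermis. The ages of the mice and the number of animals behind a library are not given in the labels used here.

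Cholesterol is built from acetyl-CoA through mevalonate, isoprenoids, squalene and lanosterol, and fatty acids are built from acetyl-CoA through malonyl-CoA. Most enzymes of both routes are transcribed under sterol regulatory element-binding proteins (SREBPs), the products of Srebf1 and Srebf2. When membrane sterol is low, the escort protein Scap carries the SREBP precursor from the endoplasmic reticulum to the Golgi, where it is cleaved to the active factor. When sterol is high, Insig1 holds Scap and SREBP back, and Insig1 is itself an SREBP target. In skin both routes are known above all from sebaceous glands and from the lipid barrier of the epidermis.

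Promoter stretches are shown for 3 enzymes, because Hmgcs1 and Cyp51 had the largest changes among the members that passed the test, and Mvk, an enzyme of the same pathway, did not pass it. They are RefSeq promoters on GRCm38.p6, printed 5′ to 3′ and ending before the annotated exons of the gene, with capitals on matches to the sterol regulatory element TCACNCCAC, the CCAAT box CCAAT and the GC box GGGCGG on either strand. Hmgcs1 lies at chr13:119690191-119690350 (+), Cyp51 at chr5:4104747-4104906 (-) and Mvk at chr5:114444109-114444268 (+).
Hmgcs1: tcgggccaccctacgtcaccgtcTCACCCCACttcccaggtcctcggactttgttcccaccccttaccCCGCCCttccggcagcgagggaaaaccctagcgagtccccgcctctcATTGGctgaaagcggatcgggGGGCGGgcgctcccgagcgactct
Cyp51: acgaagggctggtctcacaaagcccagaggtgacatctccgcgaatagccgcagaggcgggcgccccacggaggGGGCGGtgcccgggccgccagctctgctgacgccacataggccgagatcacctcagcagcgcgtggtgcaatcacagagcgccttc
Mvk: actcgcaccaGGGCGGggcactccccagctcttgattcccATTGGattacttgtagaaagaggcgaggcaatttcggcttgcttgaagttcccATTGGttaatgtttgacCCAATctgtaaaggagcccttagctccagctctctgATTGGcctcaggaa
A RefSeq promoter, which spans 250 bases before to 50 bases after a start, was found for 23 of the 28 members, and these had 29 promoters in all. The sterol regulatory element letters stood in 1 of the 29, that of Hmgcs1, and in 1.24% of the 32851 promoters of all genes. Only exact matches to this string were counted, so that an element with other letters would be missed. CCAAT stood in 21 of the 29 (72.4%) against 37.4% of all promoters, and GGGCGG in 22 (75.9%) against 35.7%. The Mvk stretch holds 4 CCAAT boxes in one or the other orientation and 1 GC box. The glucocorticoid response element in its full palindromic form, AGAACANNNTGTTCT, stood in 0 of the 29 and in 0.00913% of all promoters. The motifs do not overlap each other in the Hmgcs1, Cyp51 and Mvk stretches, and a match is a description of the letters only.

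Library totals ranged from 6194415 to 13941628 counts in DP and from 14067139 to 33014976 in HFSC. Nr3c1 was at 671 and 978 CPM (library-scaled counts, described with the processing) in Control DP. In GR KO DP it was at 137 and 111 CPM, so that the deletion was visible in both GR KO DP libraries. Nr3c1 in HFSC was at 257.5 and 338 CPM in Control and, lower in both libraries, at 243 and 170 CPM in GR KO. It was at 420.5 and 400 CPM in Sham HFSC, 267 and 266 CPM in ADX HFSC and 388 and 319 CPM in ADX+CORT HFSC. The cause of these HFSC differences was not tested. All libraries are labelled female, but the 4 HFSC libraries of the Control and GR KO groups had 119.5 to 168.1 CPM from 4 Y-linked genes and at most 0.11 CPM of Xist, while the other HFSC libraries had no count from the Y-linked genes and 119 to 252 CPM of Xist. Both groups of the HFSC deletion comparison share this pattern, and it separates them from the surgery groups. Of the members, Nsdhl and Ebp are X-linked. In DP all libraries had Xist at 278 to 566 CPM and the Y-linked genes at 2.84 to 37.7 CPM. Defining markers were detected in both cell types, with summed DP markers at 2230 to 5593 CPM in DP libraries and summed HFSC markers at 27220 to 61100 CPM in HFSC libraries. Dermal fibroblast markers were also abundant in the DP libraries, at 15960 to 75630 CPM.

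Levels between genes were compared per length, as TPM, a transcript level corrected for length and library total. In Sham DP the highest members were Fdps at 224.7 ± 19.0 TPM (SD, n = 2), Msmo1 at 105.9 TPM and Ebp at 77.3 TPM, and the lowest was Acaca at 8.76 TPM. In Control DP the order began with Srebf1 at 112.4 TPM, followed by Ebp at 53.9, Msmo1 at 48.4 and Fdps at 47.1 TPM, and it ended with Acaca at 5.12 TPM. The Msmo1 libraries of Control DP spanned those of Ebp and Fdps, so that Msmo1 did not differ from these neighbours beyond its spread. In HFSC Hmgcs1 led in Sham at 133.9 TPM, in ADX at 126.1, in ADX+CORT at 137.6 and in GR KO at 179.4 TPM, and Ebp led in Control at 111.7 TPM next to Hmgcs1 at 105.5 TPM. Idi1 was among the 3 lowest members in 4 of the 5 HFSC groups, between 2.62 and 6.78 TPM, with Acaca and Acss2. Because DP and HFSC reads were counted by different methods, levels were not compared across them.

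In the dermal papilla, adrenalectomy and receptor deletion were each compared with their own controls. After GR deletion, 4 cholesterol synthesis enzymes and 1 fatty acid desaturase rose, by 3.2- to 4.9-fold, and no member fell. After adrenalectomy no member passed the test, and 27 of 28 had a lower mean level than in Sham. The question behind both comparisons is what loss of the hormone, or of its receptor, does to the niche cells of the hair follicle.

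Hmgcs1, which condenses acetyl units to HMG-CoA at the head of the pathway, was measured at 38.9 and 28.1 CPM in the Control DP libraries and at 160 and 170 CPM in GR KO DP. The groups lay far apart, and the log2 fold change was 2.30 ± 0.27 (SE, adjusted p = 0.0192, edgeR's quasi-likelihood test with Benjamini-Hochberg adjustment over 23463 genes, as for all adjusted p-values below in DP). Cyp51, which removes a methyl group from lanosterol, stood at 24.5 and 33.1 CPM in Control and at 122.5 and 93.8 CPM in GR KO. Its log2 fold change was 1.91 ± 0.31 (adjusted p = 0.0311 in edgeR), and the GR KO libraries were both higher. Sqle, the squalene epoxidase, went from 28.5 and 31.6 CPM to 116 and 78.2 CPM (1.69 ± 0.30, adjusted p = 0.0358 in edgeR). Idi1, which isomerises the isoprenoid building block, went from 18.8 and 22.4 CPM to 77.8 and 57.7 CPM (1.72 ± 0.35, adjusted p = 0.0465 in edgeR). For these 4 enzymes the lowest GR KO library was above the highest Control library. They act at the start of the pathway, at its isoprenoid stage, at the step before ring closure and at the demethylation of lanosterol.

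The other 13 cholesterol synthesis enzymes did not pass the test. Their log2 fold changes ran from -0.76 for Pmvk, a mevalonate pathway kinase, to 1.63 for Hsd17b7, which acts in sterol demethylation. Hsd17b7 was at 18.5 and 19.2 CPM in Control and 43.3 and 73.8 CPM in GR KO (adjusted p = 0.243 in edgeR). Over all 17 enzymes, 13 had a positive log2 fold change, and the median change was 0.74, while the median of all genes tested was 0.17. Both GR KO libraries were above both Control libraries for 10 of the 17, against 31.6% of all genes tested. Mvk, Pmvk, Tm7sf2 and Nsdhl were the 4 with a negative value.

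Among the regulators none passed the test after GR deletion, and they did not move in the same direction. Insig1 had 19.7 and 25.8 CPM in Control DP and 72.7 and 80.1 CPM in GR KO DP. Its libraries did not overlap, with a log2 fold change of 1.75 ± 0.65 (adjusted p = 0.231 in edgeR). Srebf1 had 178 and 229 CPM in Control and 160 and 99.96 CPM in GR KO, lower in both GR KO libraries (-0.65 ± 0.32, adjusted p = 0.371). Srebf2 and Scap overlapped between the groups, with log2 fold changes of 0.07 and -0.22. The median over the 4 regulators was -0.07.

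Of the fatty acid enzymes, Scd2, a desaturase that places the first double bond in saturated fatty acids, was at 84.9 and 120 CPM in Control and 481 and 269 CPM in GR KO DP. It rose by 1.87 ± 0.39 on the log2 scale (adjusted p = 0.0482 in edgeR). Acly, which makes cytosolic acetyl-CoA from citrate, was at 62.9 and 71.6 CPM in Control and at 209 and 75.3 CPM in GR KO. The second GR KO library lay just above the Controls, and the change of 1.08 ± 0.41 did not pass (adjusted p = 0.237). The remaining 5 enzymes ranged from -0.27 for the elongase Elovl6 to 0.78 for Scd1. All 7 fatty acid enzymes were lower in GR KO DP replicate 2 than in replicate 1, with a median log2 ratio of -0.84, against 0.06 over all genes. Of the related fatty acid genes, Scd3, a desaturase paralog known from sebaceous glands, fell from 26.6 and 5.30 CPM (338 and 57 reads) to 0.325 and 0.317 CPM (4 reads in each library), with a log2 fold change of -5.59 ± 1.04 (adjusted p = 0.0391). None of the other 31 related genes passed the test in this comparison.

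**Figure D1:**
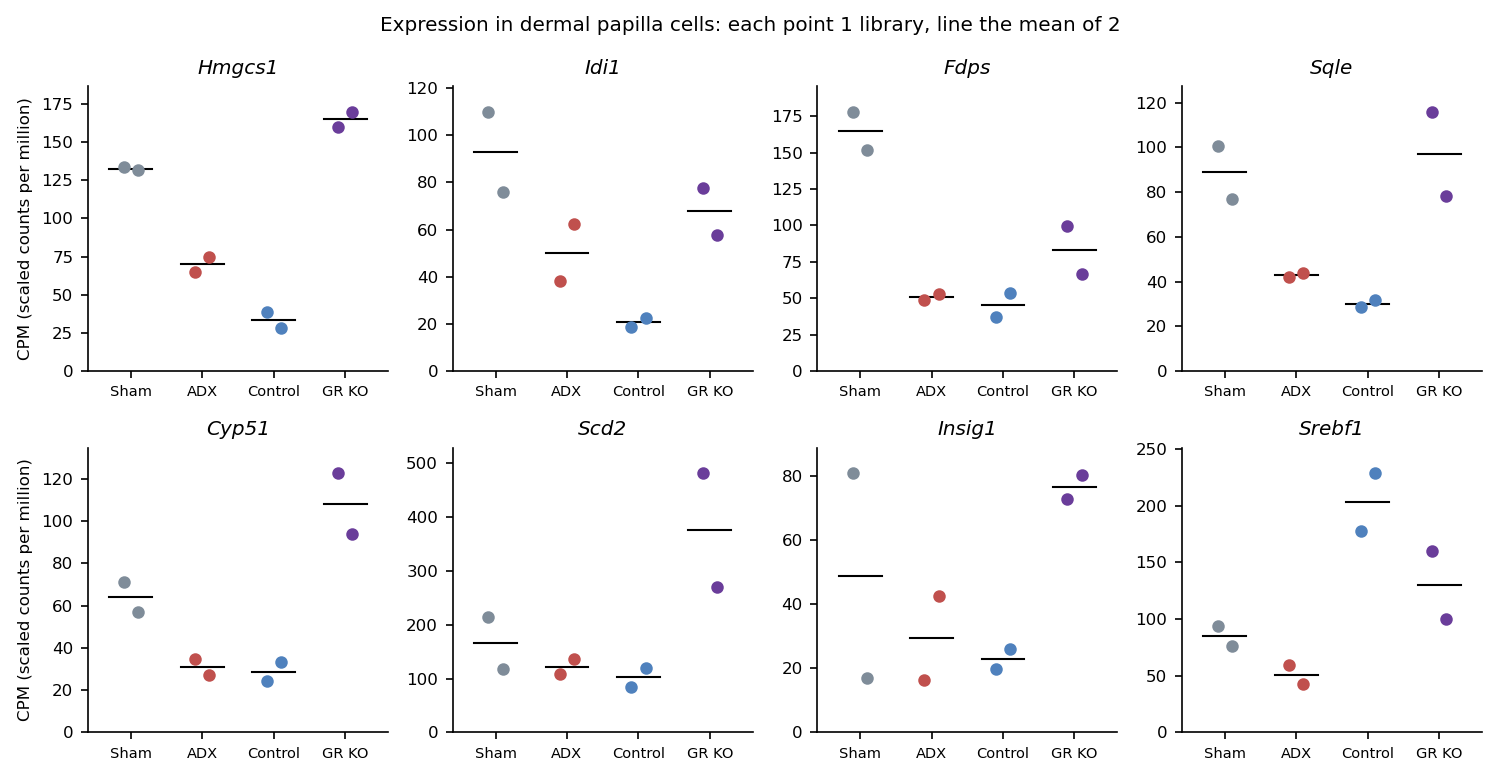
CPM values (vertical axes, from 0) of 8 members in the 4 DP groups, with 1 point per library and a line at the mean of 2. The GR KO points of Hmgcs1, Idi1, Sqle, Cyp51 and Scd2 lie above all Control points, and the Sham points of Hmgcs1, Fdps, Sqle and Cyp51 lie above the Control points as well.

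Read against all genes, 0.767% of the genes tested rose and 0.771% fell after GR deletion in DP, while 5 of 28 members rose and 0 fell. Both GR KO libraries were above both Control libraries for 14 members and below them for 2, against 31.6% and 20.0% of all genes tested. With another scaling, the median of ratios, the overall split of 180 risen and 181 fallen genes became 134 and 247, and Scd2 no longer passed (adjusted p = 0.0534), while Hmgcs1, Idi1, Sqle and Cyp51 did. The calls rest on few libraries. Without Control DP replicate 2 none of the 5 members passed, with adjusted p-values of 0.145 for Hmgcs1, 0.204 for Cyp51, 0.284 for Scd2, 0.331 for Sqle and 0.359 for Idi1, and the calls among all genes went from 361 to 19. With the first Control DP library left out, with the first GR KO DP library left out, or with only the groups compared in the fit, Hmgcs1 alone passed. Scd3 did not pass without any of the 4 libraries in turn (adjusted p = 0.0515 to 0.186) or when only the groups compared were fitted (0.0704).

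Sums of several marker lists differed between these groups. The dermal fibroblast list includes Pdgfra, the gene of the Cre driver used for the dermal papilla, so that it is not limited to other cell types. Summed dermal fibroblast markers were 24860 and 15960 CPM in Control DP and 65390 and 75630 CPM in GR KO DP, while summed DP markers were 3374 and 5593 CPM against 2230 and 2820 CPM. Sebocyte markers were 807 and 328 CPM in Control and 227 and 125 CPM in GR KO, which is the direction of Scd3 and opposite to that of Scd2. Adipocyte markers were low, at 264 and 87.7 CPM against 113 and 43.3 CPM. Of the 10, 3 had no count in Control DP (Lep, Cidec and Pck1) and 2 had none in GR KO DP (Adipoq and Cidec). Immune markers reached 2833 CPM in GR KO DP replicate 1 and 36.1 CPM in replicate 2. The HFSC marker list summed to 1049 and 829.3 CPM in Control and 3504 and 4354 CPM in GR KO, most of it from Postn, which dermal cells also express (267 and 411 against 1898 and 3103 CPM), and Cd34. The basal keratins Krt5, Krt14 and Krt15 together were at 271 and 75.5 CPM in Control and 326 and 1.35 CPM in GR KO, so that they did not separate the groups. Differentiated epidermis markers were lower in both GR KO libraries, at 1820 and 903 CPM in Control and 684 and 57.6 CPM in GR KO. Mitosis markers were 33.8 and 12.6 CPM in Control and 172.5 and 88.1 CPM in GR KO. The part of these markers in the changes was not tested, and in sorted bulk RNA fewer cells of a type and less RNA per cell cannot be told apart.

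After adrenalectomy nearly all members had lower values in DP. Fdps, which makes farnesyl pyrophosphate, had the smallest p-value, with 178 and 152 CPM in Sham and 48.5 and 52.7 CPM in ADX. The ADX libraries were both well below the Sham libraries, and the log2 fold change of -1.70 ± 0.31 did not pass the test over all genes (adjusted p = 0.181 in edgeR). Sqle was at 101 and 76.9 CPM in Sham and 42.1 and 43.7 CPM in ADX (-1.05 ± 0.30, adjusted p = 0.26). Hmgcs1 was at 134 and 132 CPM in Sham and 65.2 and 74.6 CPM in ADX (-0.92 ± 0.26, adjusted p = 0.263). Both ADX libraries were below both Sham libraries for 9 of the 17 cholesterol enzymes, against 19.4% of all genes tested. By their means 16 of the 17 were lower in ADX, with a median log2 fold change of -0.64. Tm7sf2, a sterol reductase at low level, was the exception at 0.19.

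The 4 regulators were all lower in ADX DP by their means, with a median of -0.63. Srebf1 was at 94.4 and 75.9 CPM in Sham and 59.2 and 42.9 CPM in ADX, without overlap (-0.74 ± 0.32, adjusted p = 0.405). Srebf2 was at 126 and 92.8 CPM against 58.0 and 93.4 CPM, and its groups overlapped (-0.53 ± 0.32, adjusted p = 0.554). The 7 fatty acid enzymes were also all lower by their means, with a median of -0.69. Acly was at 94.4 and 99.6 CPM in Sham and 41.3 and 40.2 CPM in ADX, with little spread within either group (-1.25 ± 0.41, adjusted p = 0.306). Fasn, the fatty acid synthase, was at 88.3 and 50.3 CPM against 42.0 and 34.3 CPM (-0.86 ± 0.37, adjusted p = 0.401).

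In this comparison edgeR called 4 genes in all, or 0.017% of those tested, and none was a member, with 2735 genes and 10 members at an unadjusted p under 0.05. DESeq2 called 466 of 19131 genes with an adjusted p, and 1 of 28 members, Fdps. Both ADX libraries were below both Sham libraries for 15 members and above them for 0, against 19.4% and 23.9% of all genes, and the median change of the members was -0.66 against 0.08 over all genes. Among the related genes no call was made either, and 25 of 32 had a negative log2 fold change. The HFSC markers in these DP libraries summed to 3081 and 5342 CPM after sham operation but to 1734 and 1306 CPM after adrenalectomy. Most of the sum was Postn, which dermal cells also express, at 2426 and 4273 CPM against 1267 and 871 CPM. Krt5, Krt14 and Krt15 together were at 147 and 478 CPM against 96.9 and 42.3 CPM. Tcf7l2 went the other way, at 49.9 and 89.2 CPM against 114 and 104 CPM, and Sox9 overlapped. Differentiated epidermis markers were 1082 and 4139 CPM against 492 and 292 CPM. Sebocyte markers were 245.5 and 170 CPM against 138 and 144 CPM. Pericyte and smooth muscle markers were 336.6 and 415.4 CPM in Sham and 5609 and 964.5 CPM in ADX, and mitosis markers 19.8 and 43.5 CPM against 192.9 and 50.6 CPM. The ADX DP libraries were also the shallowest, at 6194415 and 7784320 counts against 11425379 and 11329227 in Sham DP. Y-linked genes were at 37.7 and 26.4 CPM in ADX DP and at 9.84 and 24.1 CPM in Sham DP. The part of these markers, of depth and of the Y-linked signal in the lower values was not tested.

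**Figure D2:**
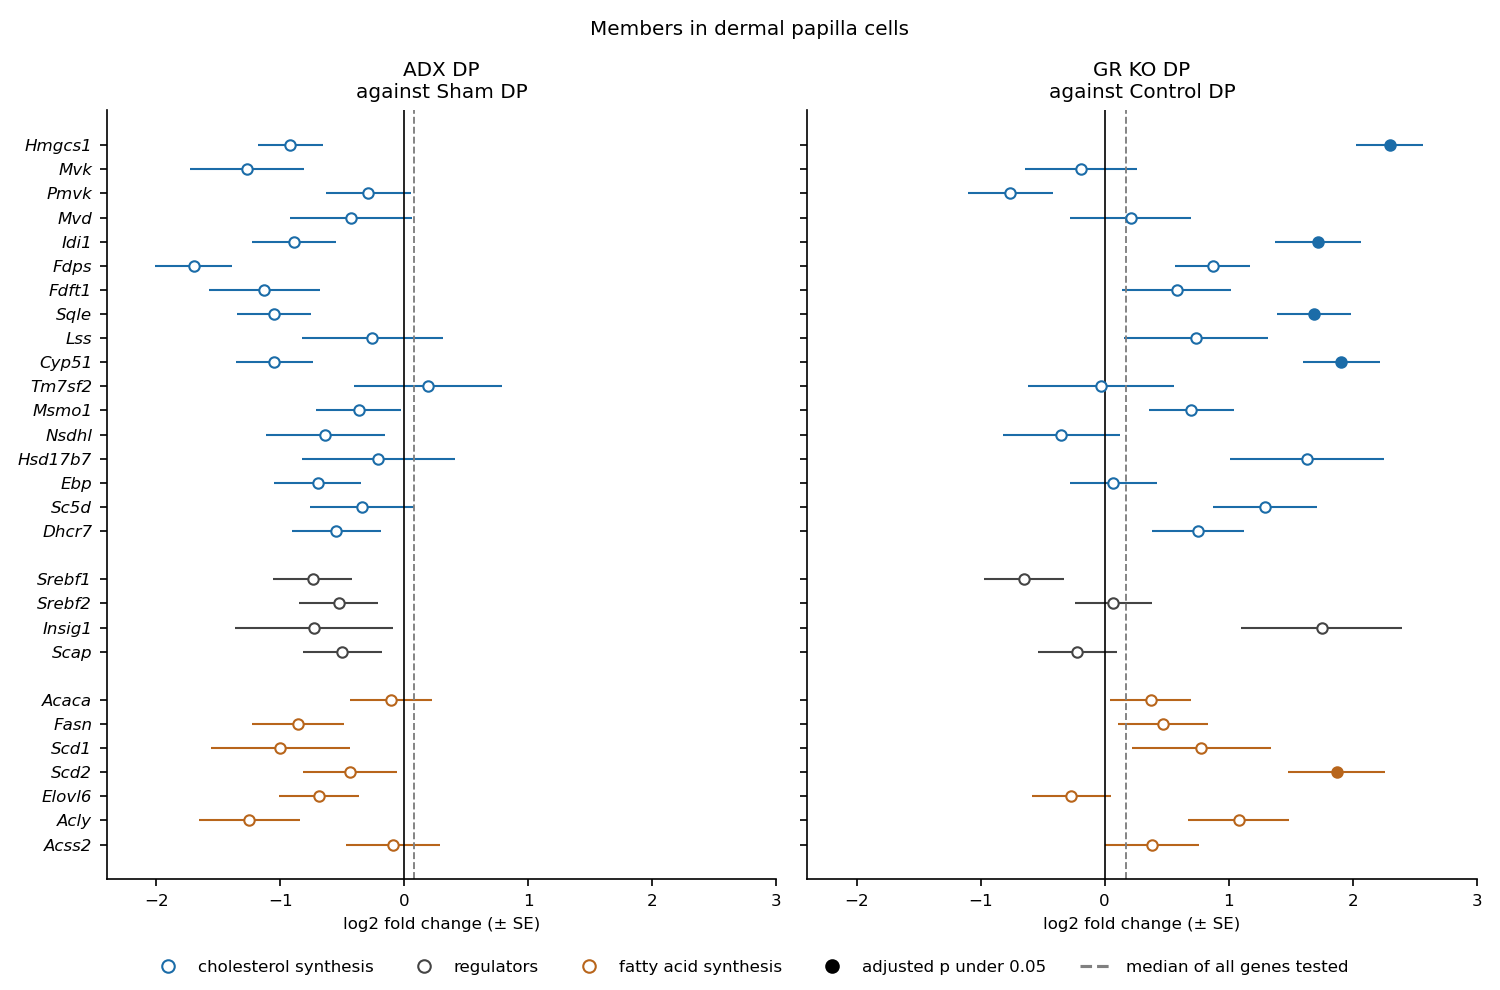
Log2 fold changes with standard errors (horizontal axes) of the 28 members in both DP comparisons, with filled points where the adjusted p is under 0.05 and a dashed line at the median of all genes tested. After adrenalectomy 27 of 28 points lie below 0 and none is filled, and after GR deletion 21 lie above 0 and 5 are filled.

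The effects of GR deletion and adrenalectomy in DP, which share no libraries, were compared directly as a difference of log2 fold changes. Hmgcs1 differed by 3.23 ± 0.38 (adjusted p = 0.0245 in edgeR), Cyp51 by 2.96 ± 0.44 (adjusted p = 0.033), Sqle by 2.74 ± 0.42 (adjusted p = 0.0342) and Fdps by 2.58 ± 0.43 (adjusted p = 0.0408), each higher under deletion. These 4 are all cholesterol synthesis enzymes. A higher difference was called for 0.349% of all genes and a lower one for 0.128%, and 0 members were lower. Over the 28 members 26 differences were positive and the median was 1.19, against 0.11 over all genes. With median-of-ratios scaling the latter median became -0.06, a shift of more than 0.1, and the split of calls over all genes went from 82 and 30 to 46 and 45. Hmgcs1 no longer passed without Sham DP replicate 2, ADX DP replicate 2 or Control DP replicate 2 (adjusted p = 0.0538 to 0.112 in edgeR), and Cyp51 without any of these or Control DP replicate 1 (0.0822 to 0.153). Sqle did not pass without 6 of the 8 libraries, all but ADX DP replicate 1 and GR KO DP replicate 2 (0.0513 to 0.188). Fdps did not pass without 7 of the 8, all but GR KO DP replicate 2 (0.0533 to 0.165), and had an adjusted p of 0.05 with median-of-ratios scaling.

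The control groups of the 2 DP experiments stood at different levels. Summed over the 17 cholesterol enzymes, Sham DP had 1182 and 937 CPM, ADX DP 544 and 659 CPM, Control DP 417 and 538 CPM, and GR KO DP 1046 and 905 CPM. The values of ADX thus lay near those of Control, and the values of GR KO near those of Sham. The summed HFSC markers in DP, given above, were likewise higher in all Sham and GR KO libraries than in all ADX and Control libraries. Postn among them followed the same order. So did the summed dermal fibroblast markers, at 28490 and 35110 CPM in Sham and 21480 and 20350 CPM in ADX, with Control and GR KO given above. Summed DP markers did not, at 4051 and 2371 CPM in Sham and 2570 and 5324 CPM in ADX. The part of these markers in this order was not tested. The 7 fatty acid enzymes summed to 725 and 522 CPM in Sham, 359 and 401 CPM in ADX, 391 and 438 CPM in Control, and 1149 and 545 CPM in GR KO. The 4 regulators did not follow this order, with 362 and 237 CPM in Sham and 426.5 and 468 CPM in Control. Among them Srebf1 was at 94.4 and 75.9 CPM in Sham and 178 and 229 CPM in Control. The experiments differ in strain, surgery and tamoxifen, whose parts cannot be told apart, and no test was made between their controls.

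**Figure D3:**
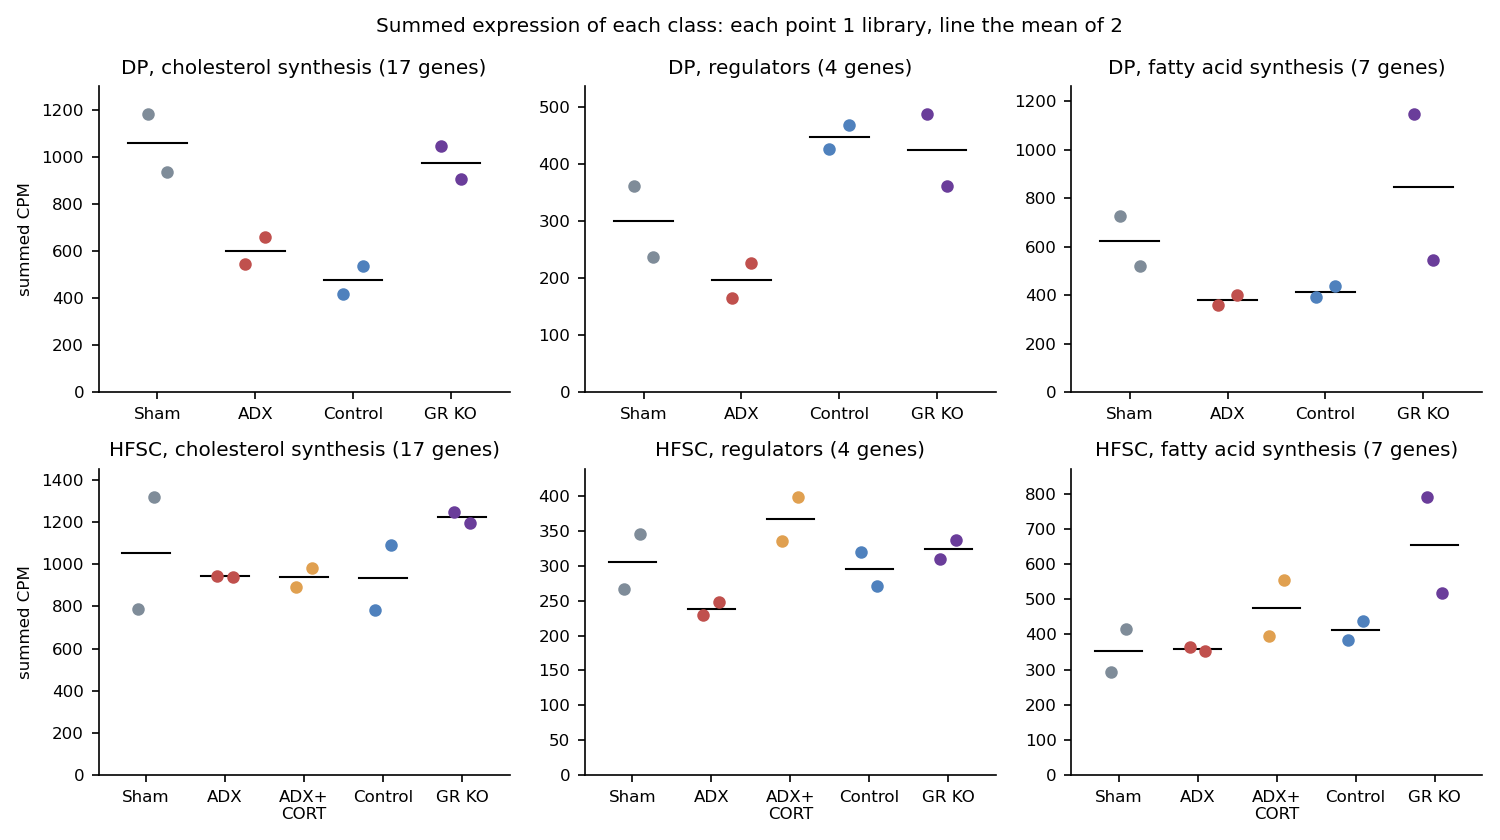
Summed CPM values (vertical axes, from 0) of the 3 classes in each group, with DP above and HFSC below, 1 point per library and a line at the mean of 2. In DP the cholesterol sums of ADX (544 and 659) and Control (417 and 538) lie below those of Sham and GR KO, while in HFSC the Sham points (787 and 1321) span most of the range of the other groups.

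In the stem cells no member passed the test in any of the 5 comparisons. The smallest adjusted p-values were those of Acly and Acss2 when corticosterone was given after adrenalectomy and of Elovl6 after GR deletion in the dermis. The smallest unadjusted one was that of Scd1 with corticosterone against Sham (adjusted p = 0.334 in edgeR). The spread between replicates was wide for these genes in some groups. In Sham HFSC 26 of 28 members were higher in replicate 2 than in replicate 1 (92.9%, against 48.4% of all genes), with a median log2 ratio of 0.56. In Control HFSC 15 of the 17 cholesterol enzymes were higher in replicate 2, and their median log2 ratio was 0.65.

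Adrenalectomy was compared with sham operation in HFSC first. Idi1 was at 2.59 and 4.73 CPM in Sham and 10.8 and 8.01 CPM in ADX, higher in both ADX libraries at a low level (log2 fold change 1.37 ± 0.52, adjusted p = 0.233 in edgeR over 15231 genes, as below in HFSC). Hsd17b7 was at 27.1 and 53.6 CPM in Sham and 22.5 and 20.5 CPM in ADX (-0.91 ± 0.37, adjusted p = 0.257). Of the cholesterol enzymes 12 of 17 had a negative value, with a median of -0.20. All 4 regulators were lower by their means, led by Insig1 with 20.9 and 30.2 CPM in Sham against 16.6 and 18.3 CPM in ADX (-0.55 ± 0.34, adjusted p = 0.469) and Scap with 79.8 and 88.8 against 67.4 and 62.0 CPM (-0.38 ± 0.25, adjusted p = 0.489).

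Scd1 and Acly had the smallest p-values among the fatty acid enzymes in ADX HFSC, with opposite signs. Scd1 was at 31.5 and 42.2 CPM in Sham and 91.8 and 89.9 CPM in ADX (1.30 ± 0.41, adjusted p = 0.157 in edgeR). Acly was at 95.4 and 116 CPM in Sham and 57.1 and 86.5 CPM in ADX (-0.56 ± 0.24, adjusted p = 0.281). The risen share of all genes was 0.282% and the fallen share 0.0131%, and no member was in either, with 6 members at an unadjusted p under 0.05. DESeq2 called 840 of 14041 genes with an adjusted p, and 1 of 28 members, Scd1. Both ADX libraries lay above both Sham libraries for 2 members and below for 10, against 25.5% and 23.9% of all genes. The sebocyte markers summed to 216 and 348 CPM in Sham and 379 and 703 CPM in ADX, and the mitosis markers to 130 and 156 CPM against 889 and 303 CPM. HFSC markers summed to 53340 and 58010 CPM in Sham and to 27970 and 38400 CPM in ADX, and differentiated epidermis markers to 3376 and 4866 against 6115 and 7057 CPM. The part of these markers in these values was not tested.

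Corticosterone after adrenalectomy was compared with adrenalectomy alone, and both surgery comparisons share the ADX libraries. Acly was at 57.1 and 86.5 CPM in ADX and 129 and 134 CPM in ADX+CORT, above the Sham libraries as well (0.87 ± 0.24, adjusted p = 0.076 in edgeR). Acss2, which makes acetyl-CoA from acetate, was at 8.23 and 9.24 CPM in ADX and 17.8 and 22.5 CPM in ADX+CORT, with 13.3 and 13.4 CPM in Sham (1.20 ± 0.36, adjusted p = 0.0967). Srebf1 was at 66.4 and 59.0 CPM in ADX and 87.2 and 124 CPM in ADX+CORT (0.75 ± 0.23, adjusted p = 0.101), and Srebf2 at 79.4 and 108 against 145 and 159 CPM (0.70 ± 0.24, adjusted p = 0.144). For these 4 genes both ADX+CORT libraries lay above both ADX libraries.

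Insig1 and the cholesterol enzymes did not show the same direction with corticosterone. Insig1 was at 16.6 and 18.3 CPM in ADX and 13.6 and 12.2 CPM in ADX+CORT (-0.44 ± 0.34, adjusted p = 0.524). Dhcr7, the reductase of the last step to cholesterol, was at 38.2 and 61.5 CPM against 90.5 and 80.6 CPM (0.78 ± 0.27, adjusted p = 0.148), and Idi1 at 10.8 and 8.01 against 3.34 and 3.75 CPM (-1.41 ± 0.52, adjusted p = 0.161). The 17 enzymes split into 9 positive and 8 negative values with a median of 0.07. Over all members, both ADX+CORT libraries lay above both ADX libraries for 9 and below for 7, against 26.7% and 25.8% of all genes. edgeR called no gene in this comparison (0.0%), with 2939 genes and 8 members at an unadjusted p under 0.05. With DESeq2, 1316 of 14041 genes with an adjusted p were called, and 3 of 28 members, Acly, Acss2 and Srebf1. The members were thus called about as often as all genes. Without ADX HFSC replicate 2, edgeR called 548 genes, 238 risen and 310 fallen. HFSC markers were at 27970 and 38400 CPM in ADX and 52310 and 50400 CPM in ADX+CORT, mitosis markers were at 889 and 303 against 226 and 80.4 CPM, and sebocyte markers at 379 and 703 against 526 and 679 CPM. The part of these markers in the values was not tested.

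Against Sham, ADX+CORT HFSC showed the largest value for Scd1, at 81.4 and 194 CPM against 31.5 and 42.2 CPM in Sham (1.90 ± 0.42, adjusted p = 0.334 in edgeR). Acaca, which makes malonyl-CoA, was at 12.2 and 13.2 CPM against 19.2 and 25.4 CPM (-0.81 ± 0.33, adjusted p = 0.776). Of the regulators, Insig1 had the lowest log2 fold change, at 13.6 and 12.2 CPM against 20.9 and 30.2 CPM (-0.99 ± 0.34, adjusted p = 0.727), and Srebf1 had the highest, at 87.2 and 124 CPM against 68.9 and 81.9 CPM (0.48 ± 0.23, adjusted p = 0.806). Of the cholesterol enzymes, Hsd17b7 was at 27.1 and 18.1 CPM against 27.1 and 53.6 CPM (-0.84 ± 0.36, adjusted p = 0.8) and Fdft1, the squalene synthase, at 67.6 and 87.7 CPM against 67.7 and 180 CPM (-0.67 ± 0.38, adjusted p = 0.839). edgeR called no gene (0.0%), with 927 genes and 4 members at an unadjusted p under 0.05. With DESeq2, 59 of 14041 genes with an adjusted p were called, and 1 of 28 members, Scd1. Both ADX+CORT libraries were above both Sham libraries for 7 members and below for 4, against 21.5% and 19.1% of all genes. Sebocyte markers were at 216 and 348 CPM in Sham and 526 and 679 CPM in ADX+CORT, and differentiated epidermis markers at 3376 and 4866 against 5903 and 8170 CPM. HFSC markers were at 53340 and 58010 CPM in Sham and 52310 and 50400 CPM in ADX+CORT. The part of these markers in the values was not tested.

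**Figure D4:**
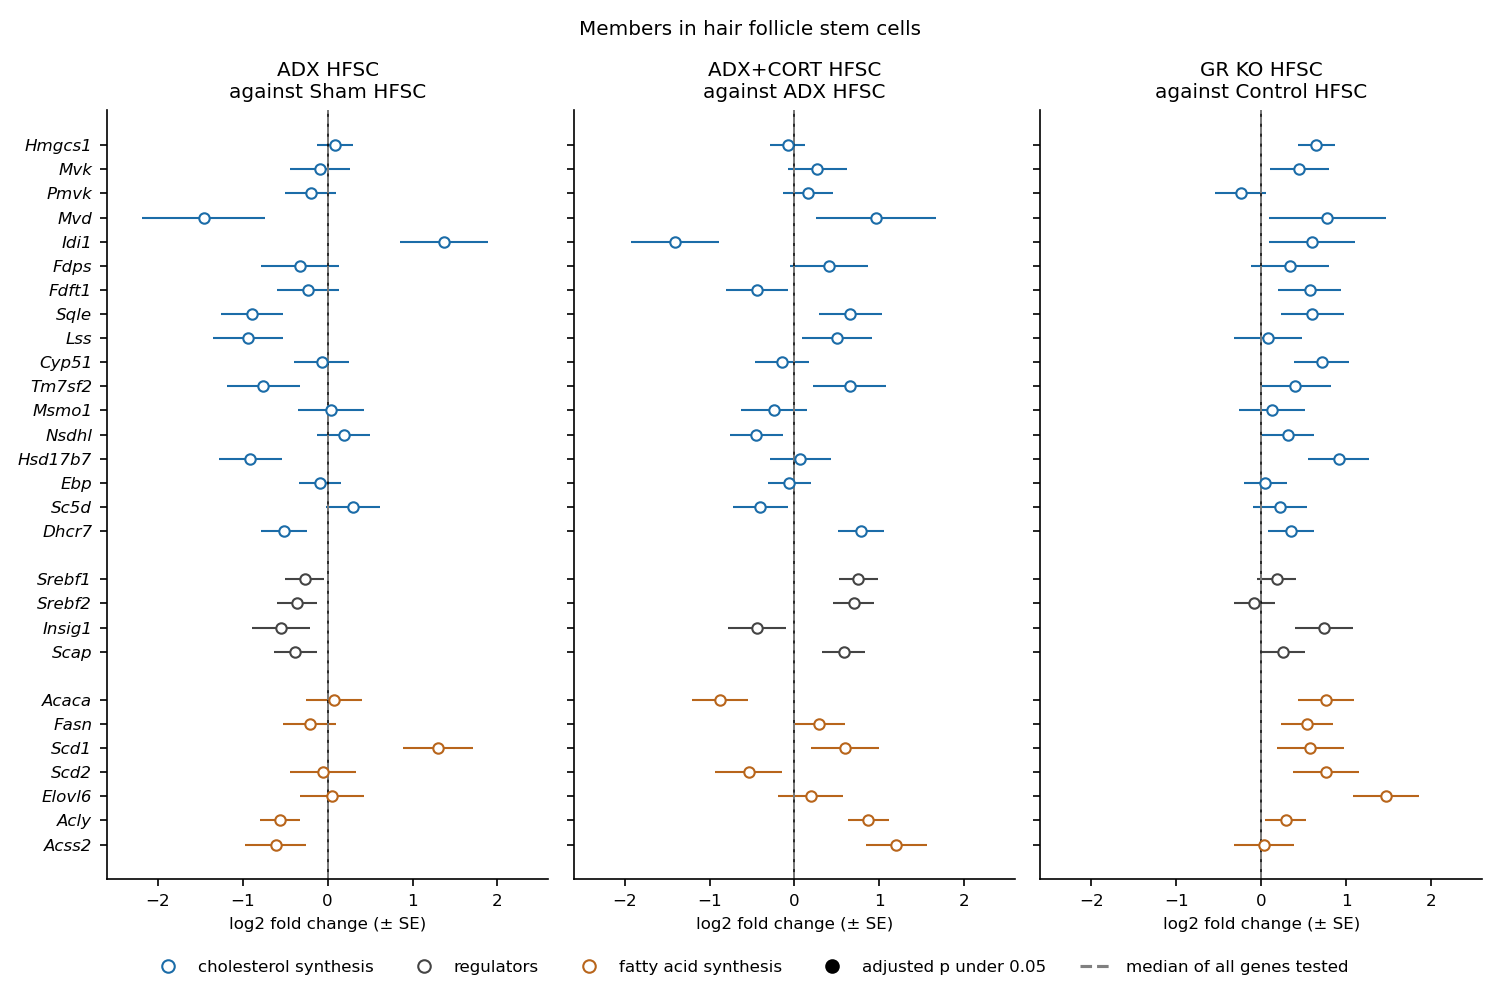
Log2 fold changes with standard errors (horizontal axes) of the 28 members in 3 HFSC comparisons, drawn as for DP, where no point is filled. In the right panel 26 of 28 points lie above 0, with Elovl6 farthest at 1.47, while the other panels have points on both sides.

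GR deletion in the dermis was compared with its controls in HFSC. Elovl6, which elongates palmitate, was at 44.5 and 60.6 CPM in Control and 199 and 92.3 CPM in GR KO. Both GR KO libraries were above the Controls and far from each other (1.47 ± 0.39, adjusted p = 0.0968 in edgeR). Acaca was at 15.0 and 11.2 CPM against 27.1 and 17.2 CPM (0.76 ± 0.33, adjusted p = 0.347). All 7 fatty acid enzymes had a positive value, with a median of 0.58. The groups did not overlap for 5 of the 7, and 19.3% of all genes tested were higher without overlap.

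Of the cholesterol enzymes in GR KO HFSC, Hmgcs1 was at 152.5 and 138 CPM in Control and 233 and 224 CPM in GR KO, with little spread in either group (0.65 ± 0.22, adjusted p = 0.191 in edgeR). Hsd17b7 was at 23.6 and 31.7 CPM against 63.9 and 39.7 CPM (0.91 ± 0.36, adjusted p = 0.298). In this class 16 of 17 values were positive, with a median of 0.40, and Pmvk alone was negative at -0.24. The groups did not overlap for 7 of the 17, and 19.3% of all genes tested were higher without overlap. Insig1 was at 22.4 and 12.3 CPM against 29.3 and 28.4 CPM (0.74 ± 0.34, adjusted p = 0.377) and Scap at 75.3 and 46.1 against 68.8 and 76.7 CPM (0.26 ± 0.25, adjusted p = 0.743).

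Over all genes 0.67% rose and 0.315% fell in this comparison, and 0 members were among them, with 6 members and 1997 genes at an unadjusted p under 0.05. DESeq2 called 717 of 14784 genes with an adjusted p, and 2 of 28 members, Elovl6 and Hmgcs1. Both GR KO libraries were above both Control libraries for 14 members and below for 0, against 19.3% and 19.1% of all genes, and the median change was 0.43 against 0.00. Sebocyte markers summed to 749 and 924 CPM in Control HFSC and to 3647 and 2143 CPM in GR KO HFSC. Elovl6 and Scd1 were higher in GR KO replicate 1, and Scd2 was higher in replicate 2. Of all 28 members, 10 were higher in GR KO replicate 2 than in replicate 1. Mitosis markers were at 186 and 74.6 CPM against 723 and 1438 CPM, and HFSC markers at 54380 and 61100 against 27220 and 37780 CPM. Differentiated epidermis markers were at 3098 and 3794 against 9166 and 4390 CPM. Immune markers, at 2966 to 3834 CPM in these 4 libraries and 69.6 to 208.5 CPM in the other HFSC libraries, did not separate the 2 groups. The part of these markers in the changes was not tested.

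**Figure D5:**
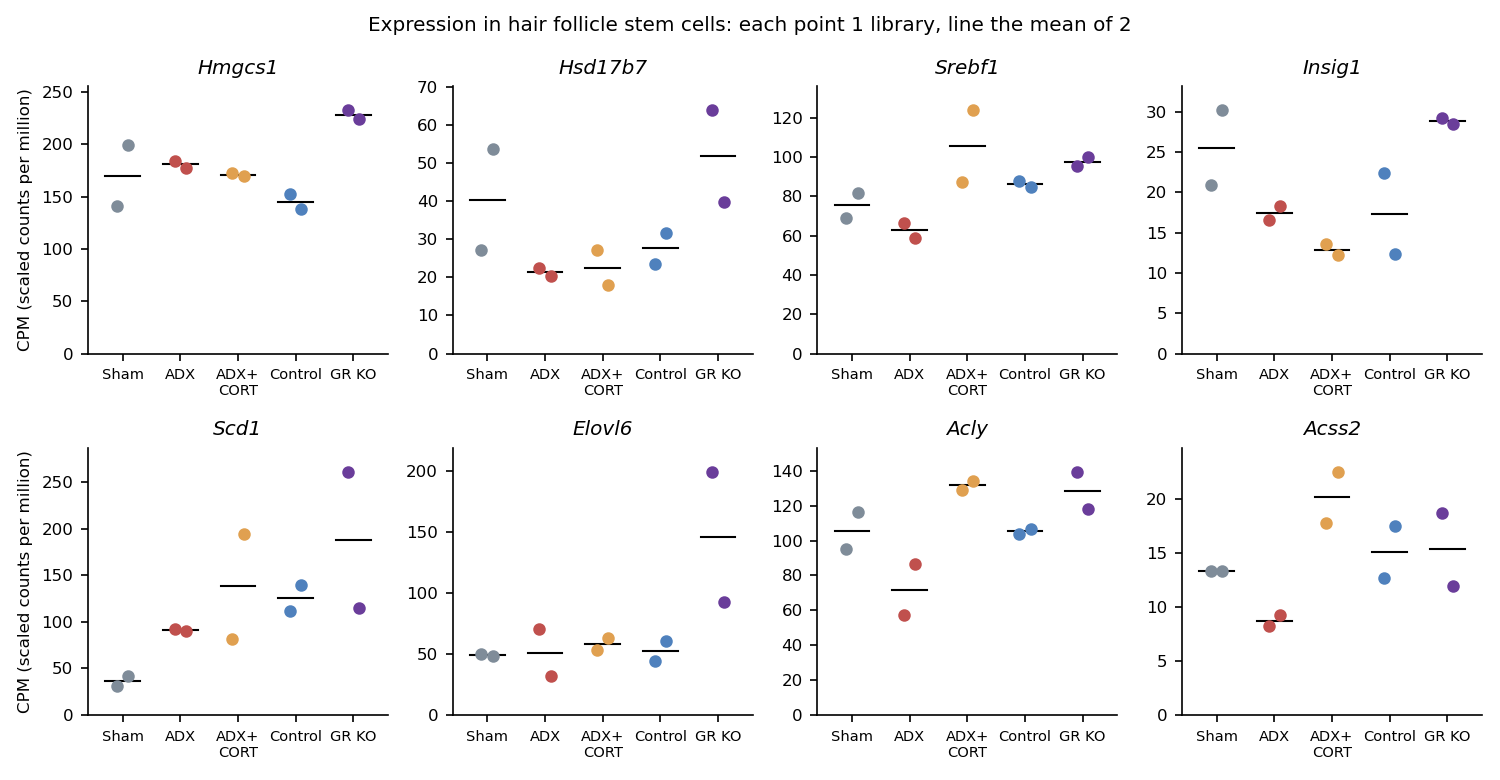
CPM values (vertical axes, from 0) of 8 members in the 5 HFSC groups, with 1 point per library and a line at the mean of 2. The 2 GR KO points of Elovl6 (199 and 92.3) lie above the Control points (44.5 and 60.6), and the ADX+CORT points of Acly and Acss2 lie above those of ADX.

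The difference between the effects of GR deletion and adrenalectomy in HFSC was called for no gene (0.0%) in edgeR, with 1606 genes and 7 members at an unadjusted p under 0.05, and DESeq2 called 108 genes and no member. The differences were positive for 24 of 28 members, with a median of 0.68 against 0.02 over all genes. Hsd17b7 had the smallest p-value, with 1.81 ± 0.51 (adjusted p = 0.376). Xist and the Y-linked genes differ between these 2 experiments as given above, and so do strain, surgery and tamoxifen, whose parts cannot be told apart.

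Several members share exon bases with another annotated gene. This holds for 12 of the 28, including Cyp51 with Akap9 and Idi1, Hmgcs1 and Elovl6 with long non-coding transcripts on the opposite strand, and on the same strand for Fdps, Scd2, Srebf1 and Tm7sf2. The library chemistry does not mark strand, so that counts of these genes are uncertain to the extent of the overlap. Counts of the desaturase paralogs Scd1, Scd2 and Scd3 are also uncertain where their sequences are alike, which was not measured.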

How the data were processed

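SMART-Seq v4 cDNA and Nextera XT libraries were prepared from RNA of sorted cells, per the labels' protocols. The DP files hold estimated counts for each transcript, deposited by the authors and attributed by the submitters' processing notes to Salmon on mm10. The HFSC files hold whole-number counts for each gene that the authors made, per the file headers, with unstranded featureCounts 1.6.1 on exons (mapping quality of at least 30). Trim Galore 0.4.1, STAR 2.5.3 and DESeq2 1.22.2 are also named in the submitters' processing notes.

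Transcript values were added up to gene symbols with GENCODE M21 (GRCm38, which mm10 denotes) and rounded; 150 unmatched transcripts carried up to 0.0752% of a DP library. Dates had replaced 27 gene names in 2 HFSC files, and coordinates served to restore them. For DP and for HFSC, edgeR 4.0.16 (R 4.3.3) fitted all groups together with TMM scaling, its default low-count filter and the quasi-likelihood test, and Benjamini-Hochberg adjustment covered 23463 DP or 15231 HFSC genes at a threshold of 0.05. Residual degrees of freedom were 4 in DP and 5 in HFSC, with a biological coefficient of variation of 54% and 38.7%. CPM denotes counts per scaled library size, and TPM was computed from counts and transcript or exon lengths. Standard errors come from the F statistic. The steps were tested on simulated counts.

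Nothing in the labels says that libraries of a group came from separate animals, so p-values measure the spread between these libraries, which may be technical. With 2 libraries per group this spread is estimated over all groups of a cell type. Sequenced fragments carried no molecular identifiers, so counts are not numbers of molecules.

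The members and lists were chosen with earlier results of these data known. Values of each library are given for members past the threshold and, per class and pairwise comparison, for the 2 members with the smallest p-values. Of 32 related genes, those past the threshold are named, and values of some others that the rule would name are not reported here. Other members were named after their values were seen where a range, a count or a figure needed it. Each result was recomputed with DESeq2 1.42.0, with median-of-ratios size factors, unfiltered, from the compared groups alone, from protein-coding genes (DP), with a block for the replicate number, and leaving out 1 library at a time.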

Additional observations from a re-analysis of the deposited data

Results flagged for a closer look

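The effects of GR deletion and adrenalectomy in dermal papilla cells differed, by a test of the difference itself (edgeR's quasi-likelihood test with Benjamini-Hochberg adjustment), for 4 cholesterol synthesis enzymes. The log2 fold change under deletion exceeded that under adrenalectomy by 3.23 for Hmgcs1 (adjusted p = 0.0245), by 2.96 for Cyp51 (adjusted p = 0.033), by 2.74 for Sqle (adjusted p = 0.0342) and by 2.58 for Fdps (adjusted p = 0.0408). A higher difference was called for 0.349% of all genes tested. For Hmgcs1, Cyp51, Sqle and Fdps both GR KO libraries were above both Control libraries, and both ADX libraries were below both Sham libraries. Of all genes tested, 31.6% were higher without overlap in GR KO DP and 19.4% were lower without overlap in ADX DP. The 4 enzymes were picked by these same values. None of the 4 passed without Sham DP replicate 2, without ADX DP replicate 2 or without Control DP replicate 2. Cyp51 failed without 4 of the 8 libraries, Sqle without 6 and Fdps without 7, and Fdps had an adjusted p of 0.05 with median-of-ratios scaling. The experiments differ in strain, surgery and tamoxifen, whose parts cannot be told apart.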

How the results depend on the processing

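With DESeq2, the 5 members risen after GR deletion in DP passed as well. In the other DP comparisons, 1 member fell after adrenalectomy and 7 were higher in the difference of effects. In HFSC, 1 rose after adrenalectomy, 3 with corticosterone against ADX, 1 with corticosterone against Sham and 2 after GR deletion. Without the filter on low counts these 5 also passed after GR deletion in DP. In the other DP comparisons, 2 members fell after adrenalectomy and 9 were higher in the difference. In HFSC, 1 rose and 3 fell after adrenalectomy, and 1 rose in each corticosterone comparison. There 1 rose after GR deletion and 4 were higher in the difference. When only the groups compared were fitted, 1 member rose after GR deletion in DP in place of 5, and 1 rose after adrenalectomy in HFSC in place of 0. Leaving out each library in turn gave 0 to 5 members risen after GR deletion in DP, 0 to 8 higher in the difference in DP, 0 to 1 fallen after adrenalectomy in HFSC, 0 to 1 risen with corticosterone against ADX and 0 to 1 risen after GR deletion in HFSC. A group reduced to 1 library borrowed its spread from the remaining groups. The cause of these changes was not tested. No member that passed the test changed sign under any of these alternatives.

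Counts over all genes moved more. In DP, adrenalectomy called 4 genes in edgeR, 466 in DESeq2, 893 without the filter and 0 with only the groups compared. GR deletion called 361, 1372, 1452 and 142, and 529 with protein-coding genes only. The difference in DP called 112, and 1055 in DESeq2, 1305 without the filter and 197 with protein-coding genes. In HFSC, adrenalectomy called 45, 840, 888 and 93. Corticosterone against ADX called 0, 1316 and 1307, corticosterone against Sham 0, 59 and 184, and 2 with only the groups compared. GR deletion called 150, 717 and 840, and the difference 0, 108 and 256. Leaving out a library gave 1 to 12 calls after adrenalectomy and 19 to 226 after GR deletion in DP, and 0 to 233 and 5 to 336 for the same comparisons in HFSC. It gave 0 to 548 for corticosterone against ADX (548 without ADX HFSC replicate 2), 0 to 4 against Sham, 3 to 219 for the difference in DP and 0 to 20 for that in HFSC.

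The labels do not say that equal replicate numbers mark a shared litter, batch or day. Deviations of same-numbered libraries correlated at -0.148 between Sham and ADX and at 0.22 between Control and GR KO in DP, and at -0.079 to 0.041 in HFSC. With the number as a replicate block, the calls over all genes were 10 after adrenalectomy, 470 after GR deletion and 196 for the difference in DP, and 9 after adrenalectomy and 137 after GR deletion in HFSC. The block changed no call of a member.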
